A study of Mus musculus with 6 samples.

Results

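Interferon-stimulated genes are switched on when a cell detects interferon, the family of secreted proteins that warns tissue of viruses and other intracellular microbes. Type I interferons act through the kinases JAK1 and TYK2 and a complex containing STAT2 and IRF9 that binds the interferon-stimulated response element of target promoters, whereas interferon-gamma acts mainly on the gamma-activated site and through the transcription factor IRF1. In liver the response is carried by hepatocytes and by the resident and infiltrating immune cells. A list of 41 such genes, named for their known induction by interferon and sorted by role, was followed in mouse livers. Non-control array probes were assigned to the genes through their transcript accessions and the RefSeq annotation, and the brightest probe stood for each gene. Of the 41 genes, 39 were measured, Oas1g had probes that were not well above background in any pool, and Ddx60 was matched by no probe. The measured members were part of 22947 features, of which 13326 carried a gene symbol.

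The livers came from male Apoe-deficient mice on the C57BL/6J background, so every animal lacked apolipoprotein E. Squalene-fed mice (10 animals) received a purified Western diet of 0.15% cholesterol and 20% palm oil with 1% squalene added, stated as a dose of 1 g/kg of body weight, and the Western group (9 animals) received that diet without it, both for 11 weeks. The ages of the animals are not given in the sources used here. The RNA of 2 or 3 livers was mixed into each of 4 squalene pools (pools 5 to 8) and 4 Western pools (pools 1 to 4), so a pool is an average over animals and the animals themselves were not measured. Each 2-colour array set a squalene pool against a Western pool, giving 4 pool pairs (pool 5 over 1, 6 over 2, 7 over 3 and 8 over 4, called pairs 1 to 4), and the pair was the replicate. Squalene was in the red dye in pairs 1 and 4 and in the green dye in pairs 2 and 3. The liver transcripts Alb and Ttr, which encode albumin and transthyretin, were bright in every pool.

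Squalene pool 5 stood apart from the other pools in these genes. Of the 39 measured members, 29 had their highest level of the 8 pools in squalene pool 5 (74.4%), while 15.4% of all features did. The other highest values were in squalene pool 7 for 2 members and in Western pools 1, 3 and 4 for 3, 1 and 4 members. Results are therefore given with and without pair 1, which holds that pool. A level here is a log2 intensity after normalisation within and between arrays, and it sets a gene against itself across pools, never against another gene.

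**Figure D1:**
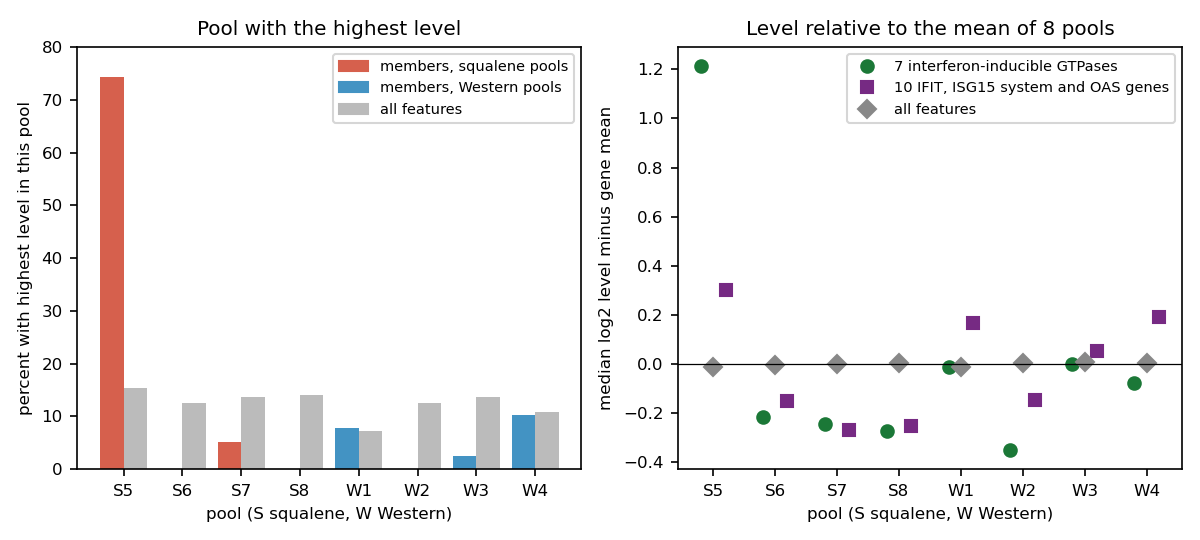
Left, percent of the 39 measured members (coloured) and of all 22947 features (grey) whose highest log2 intensity lies in each of the 4 squalene pools (S5 to S8) and 4 Western pools (W1 to W4). Right, median log2 intensity minus the gene's mean over the 8 pools for 7 interferon-inducible GTPases, for 10 IFIT, ISG15 system and OAS genes and for all features; squalene pool 5 is at 1.21 for the GTPases and at 0.30 for the second group.

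Promoters of members that peaked highest in squalene pool 5, and of members less high there, are shown because they carry the 2 elements named above. Windows from 250 bases before to 50 bases after the start of each gene (RefSeq, GRCm38.p6) were available for 33 of the 41 members, in 38 windows. The core of the interferon-stimulated response element, GAAA and GAAA with 2 bases between, on either strand, lay in 22 of these 38 windows (57.9%) and in 3.44% of 32851 windows of all genes. The gamma-activated site, TTC and GAA with 3 bases between, which reads the same on both strands, lay in 10 of the 38 windows (26.3%) and in 8.3% of all windows. Matches of either motif may overlap, and those of the response element overlap each other in Isg15. In the sequences, printed 5′ to 3′ on the strand of the gene, capitals mark matches to either motif. Igtp and Tgtp1 hold both elements side by side, a gamma-activated site first and a response element just after it. Irf1 holds the gamma-activated site alone, and Gbp2, Isg15, Ifit1 and Rsad2 hold the response element alone. Oas1a, whose window is not printed, also holds both, farther apart. Ifit2 holds the gamma-activated site alone, and Gbp3 and Irgm1 the response element alone. The gamma-activated site lay in 3 of 7 GTPase windows (6 genes) and in 2 of 10 windows (9 genes) of the IFIT, ISG15 and OAS groups. The response element lay in 6 of these 7 and 6 of these 10 windows. Whether either element goes with the level in squalene pool 5 was not tested.
Igtp, chr11:58199491-58199551, plus strand: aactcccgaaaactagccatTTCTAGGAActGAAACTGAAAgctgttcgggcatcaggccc
Tgtp1, chr11:48992294-48992354, minus strand: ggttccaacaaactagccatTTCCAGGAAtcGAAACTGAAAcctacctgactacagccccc
Irf1, chr11:53769904-53769952, plus strand: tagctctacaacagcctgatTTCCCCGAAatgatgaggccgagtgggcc
Gbp2, chr3:142620584-142620633, plus strand: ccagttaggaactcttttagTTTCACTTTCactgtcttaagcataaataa
Isg15, chr4:156200855-156200916, minus strand: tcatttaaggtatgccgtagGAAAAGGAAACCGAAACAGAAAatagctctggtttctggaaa
Ifit1, chr19:34640765-34640833, plus strand: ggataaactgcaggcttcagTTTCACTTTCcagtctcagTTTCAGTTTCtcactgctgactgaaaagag
Rsad2, chr12:26456543-26456592, minus strand: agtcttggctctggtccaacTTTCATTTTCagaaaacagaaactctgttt
A match is a run of letters and not a measured binding site.

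The design asked whether squalene in the Western diet changed hepatic transcripts, and for these genes no shift common to the pairs was found. The fitted log2 ratio of squalene over Western was above 0 for 16 members and below 0 for 23 (48% of all features were below), with a median of -0.04 beside 0.003 over all features. By limma with Benjamini-Hochberg adjustment over all features, 0 of the 39 members passed 0.05, as did 0 of all features (0%). This fit has a dye intercept, so its SEs and p-values leave out the spread between the 2 dye orientations. At an unadjusted p under 0.05 limma gave 1 member, Rsad2, which was lower; over all features 2.42% reached that level, 1.33% on the lower side. Only Rsad2 kept 1 sign in all 4 pairs, with pair 1 at -0.0013, while 6.48% of all features did. With 4 pairs, an exact sign-flip test of a single gene cannot go below p = 0.125.

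The pairs instead disagreed with one another across nearly the whole list. In pair 1, 35 of 39 members were above 0, where 52.5% of all features were, with a median log2 ratio of 0.30. In pair 2 the count above 0 was 21, against a background of 48.5%, with a median of 0.04. In pairs 3 and 4 the counts below 0 were 31 and 36, against 51.8% and 48.8% of all features, with medians of -0.28 and -0.26. The largest ratio of a member was in pair 1 for 28 of them (22.2% of all features), and the smallest was in pair 3 for 21 and in pair 4 for 17. The SD of the log2 ratio between pairs had a median of 0.38 over the members and 0.16 over all features, and exceeded 0.5 for 12 members (4.21% of all features).

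**Figure D2:**
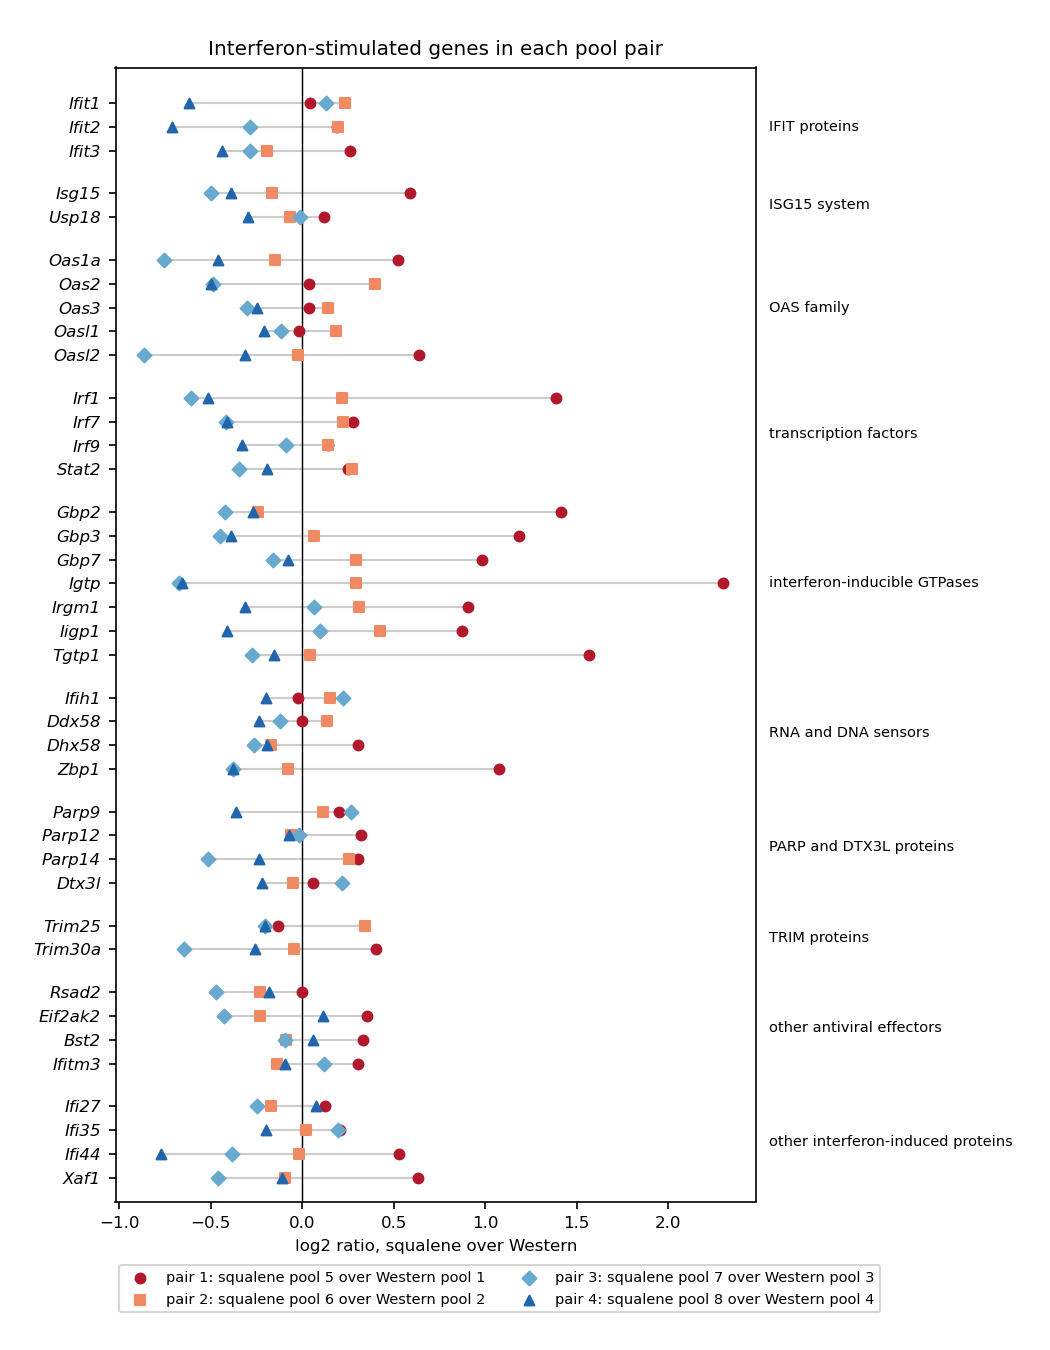
Log2 ratio of squalene over Western (x axis) in each of the 4 pool pairs for the 39 measured members, grouped by role; grey lines span the 4 pairs. Pair 1 reaches 2.30 for Igtp and lies above 0.8 for 9 members, and most ratios of pairs 3 and 4 lie below 0.

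The interferon-inducible GTPases, which attack the vacuoles of intracellular microbes and answer strongly to interferon-gamma, varied most. All 7 had a fitted log2 ratio above 0, between 0.10 and 0.32, and 0 of 7 reached an unadjusted p under 0.05 (limma). Their median was 1.19 in pair 1, 0.29 in pair 2, -0.27 in pair 3 and -0.31 in pair 4. In pair 1 all 7 lay above 0.8 on the log2 scale, where 0.506% of all features did.

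Igtp (also called Irgm3), a GTPase of the IRG family, had the widest spread of the list. Its levels were 13.32, 10.95, 10.68 and 10.91 in squalene pools 5 to 8, against 11.02, 10.66, 11.35 and 11.56 in Western pools 1 to 4. Squalene pool 5 was above all other pools by at least 1.75, and squalene pools 6 to 8 lay within the Western range. The log2 ratios were 2.30, 0.29, -0.67 and -0.65 in pairs 1 to 4, so pair 1 alone was 4.93-fold higher with squalene. Its fitted log2 ratio was 0.32 ± 0.49 (SE, n = 4), with a 95% interval from -0.94 to 1.57 and an adjusted p of 1.00 in limma. The repeat arrays of pair 1 on separate slides gave log2 ratios of 2.30 and 2.30 for Igtp.

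Tgtp1, a T-cell specific GTPase of the same family, was also highest in squalene pool 5. Its levels were 8.00, 6.27, 6.34 and 6.31 in squalene pools 5 to 8, against 6.44, 6.23, 6.61 and 6.46 in Western pools 1 to 4. Only squalene pool 5 left the range of the Western pools. The fitted log2 ratio was 0.29 ± 0.28 (SE, n = 4; unadjusted p = 0.338, limma) and 0.70 with scanner processed signals. Its probe was well above background in 3 of 4 Western pools, so it was not tested where all pools had to pass. Tgtp1 has a near-identical copy, Tgtp2, and their signals cannot be told apart here.

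Among the guanylate-binding proteins, which coat microbial vacuoles, Gbp2 showed the same single high pool. Levels were 10.54, 8.80, 8.69 and 8.75 in squalene pools 5 to 8, against 9.12, 9.04, 9.11 and 9.02 in Western pools 1 to 4. The Western pools differed by an SD of 0.05, and squalene pools 6 to 8 all lay below them while pool 5 lay above them. Gbp3 read 10.54, 9.11, 9.00 and 8.85 in squalene pools 5 to 8, against 9.35, 9.04, 9.45 and 9.24 in Western pools 1 to 4. Gbp7 read 8.67, 7.91, 7.69 and 7.67 in the squalene pools, against 7.69, 7.62, 7.85 and 7.75 in the Western pools. The fitted log2 ratios were 0.12 ± 0.27 for Gbp2, 0.10 ± 0.27 for Gbp3 and 0.26 ± 0.19 for Gbp7 (SE, n = 4).

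The immunity-related GTPases Irgm1, a regulator of the family, and Iigp1, an effector, were also highest in squalene pool 5. Irgm1 read 12.44, 11.26, 11.22 and 11.27 in squalene pools 5 to 8, against 11.53, 10.95, 11.16 and 11.58 in Western pools 1 to 4. Iigp1 read 12.74, 11.84, 11.73 and 11.66 in the squalene pools, against 11.87, 11.41, 11.63 and 12.08 in the Western pools. For both, squalene pools 6 to 8 overlapped the Western pools. Fitted log2 ratios were 0.24 ± 0.20 and 0.25 ± 0.21 (SE, n = 4), and the second, dimmer probe of each gene read 0.22 and 0.24.

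Of the transcription factors, Irf1, which relays interferon-gamma to a second wave of targets, behaved like the GTPases. Its levels were 12.67, 11.59, 11.34 and 11.41 in squalene pools 5 to 8, against 11.28, 11.37, 11.94 and 11.93 in Western pools 1 to 4. Both groups spread widely, and Western pools 3 and 4 lay above squalene pools 6 to 8. The fitted log2 ratio was 0.12 ± 0.33 (SE, n = 4), with a 95% interval from -0.72 to 0.96. The factors of the type I response varied less. Irf7, which amplifies interferon production, had ratios of 0.28, 0.22, -0.42 and -0.41 in pairs 1 to 4. Stat2 and Irf9, partners in the type I complex, had fitted ratios of -0.003 and -0.03, with SDs between pairs of 0.31 and 0.22.

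**Figure D3:**
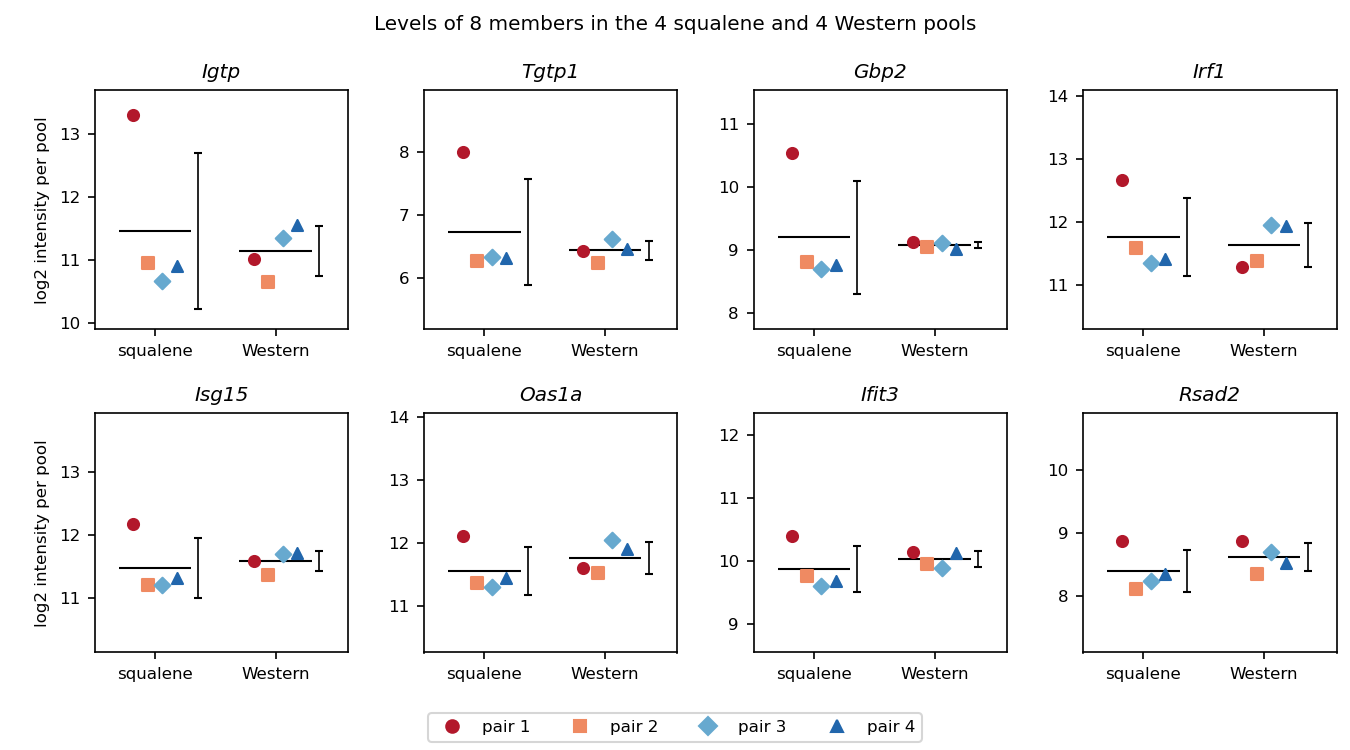
Log2 intensity of 8 members in each pool, squalene pools left and Western pools right, with the mean (line) and SD (bar) of the 4 pools; symbols give the pair. Panels span equal ranges, and squalene pool 5 (pair 1) is far above the other 7 pools for Igtp, Tgtp1 and Gbp2, less so for Irf1 and Isg15.

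The 10 measured genes of the IFIT, ISG15 and OAS groups, typical of the type I response, all had fitted log2 ratios below 0, from -0.21 to -0.04, and 0 of 10 reached an unadjusted p under 0.05 (limma). In pair 1 they lay between -0.02 and 0.64, below every GTPase. Relative to the gene's mean over the 8 pools, the median of these genes was 0.30 in squalene pool 5, then -0.15, -0.27 and -0.25 in squalene pools 6 to 8, against 0.17, -0.14, 0.05 and 0.19 in Western pools 1 to 4. For the GTPases the same medians were 1.21, -0.22, -0.25 and -0.27 in the squalene pools, against -0.01, -0.35, -0.0009 and -0.08 in the Western pools. Western pool 2 was low for both groups.

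Isg15, a ubiquitin-like protein that is joined to newly made proteins, read 12.18, 11.21, 11.22 and 11.33 in squalene pools 5 to 8, against 11.60, 11.37, 11.71 and 11.72 in Western pools 1 to 4. Pool 5 was the highest and the other squalene pools were the 3 lowest of the 8. Its fitted log2 ratio was -0.11 ± 0.17 (SE, n = 4). Usp18, which removes ISG15 and damps the type I receptor, was at -0.06 ± 0.08 (SE, n = 4).

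Oas1a, one of the enzymes that make 2′-5′ oligoadenylate to activate RNase L, read 12.12, 11.37, 11.30 and 11.44 in squalene pools 5 to 8, against 11.60, 11.52, 12.06 and 11.90 in Western pools 1 to 4. Again squalene pool 5 was highest and squalene pools 6 to 8 were lowest, with the Western pools between them. The fitted log2 ratio was -0.21 ± 0.19 (SE, n = 4; unadjusted p = 0.316, limma), and the second probe of the gene read -0.07. Oasl2, an OAS-like protein, had the widest spread of the group, with ratios of 0.64, -0.03, -0.86 and -0.31 in pairs 1 to 4. Oas2 had 0.04, 0.40, -0.48 and -0.50, while Oas3 and Oasl1 had SDs between pairs of 0.22 and 0.17. The OAS1 genes are close copies of each other, and probe sequences were not used here.

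Ifit3, an IFIT protein that binds and stabilises IFIT1 on viral RNA, read 10.40, 9.76, 9.60 and 9.68 in squalene pools 5 to 8, against 10.14, 9.96, 9.89 and 10.12 in Western pools 1 to 4. Squalene pools 6 to 8 lay below the Western pools and pool 5 above them. The fitted log2 ratio was -0.16 ± 0.12 (SE, n = 4; unadjusted p = 0.237, limma). Ifit1 and Ifit2 were at -0.05 and -0.15, with their lowest ratios, -0.62 and -0.71, in pair 4.

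Rsad2, which encodes viperin, an enzyme that makes a chain-terminating nucleotide against viral RNA synthesis, was the member with the smallest unadjusted p. It read 8.87, 8.12, 8.24 and 8.36 in squalene pools 5 to 8, against 8.87, 8.36, 8.71 and 8.54 in Western pools 1 to 4. The groups overlapped, with pools 5 and 1 equal to 2 decimals and the squalene pool lower in the other pairs. Its log2 ratios were -0.0013, -0.23, -0.47 and -0.18, and the fitted ratio was -0.22 ± 0.07 (SE, n = 4; unadjusted p = 0.0247, adjusted p = 1.00, limma). Since 2.42% of all features reach this level, 1 of 39 members is near the background. The repeat arrays of pair 1 gave log2 ratios of -0.08 and 0.08 for Rsad2, so its sign in that pair rests on their mean.

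Of the other effectors, Ifitm3, which blocks fusion of viruses in endosomes, read 14.51, 14.21, 14.31 and 14.25 in squalene pools 5 to 8, against 14.20, 14.34, 14.18 and 14.34 in Western pools 1 to 4. Bst2 (tetherin), which holds budding virions on the membrane, and Eif2ak2, the kinase PKR that stops translation on double-stranded RNA, were at 0.05 and -0.05. Ifi27, a mitochondrial protein, read 15.61, 15.38, 15.41 and 15.40 in the squalene pools, against 15.49, 15.55, 15.66 and 15.33 in the Western pools. Its fitted log2 ratio was -0.06 ± 0.05 (SE, n = 4); Ifitm3 and Ifi27 had SDs between pairs of 0.21 and 0.18. Ifi44 had ratios of 0.53, -0.02, -0.38 and -0.77 in pairs 1 to 4, Xaf1 had 0.63, -0.09, -0.46 and -0.11, and Ifi35 stayed between -0.20 and 0.21.

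Among the sensors, Zbp1, which detects Z-form nucleic acid and can start necroptosis, followed the GTPases. It read 10.45, 9.18, 9.12 and 8.93 in squalene pools 5 to 8, against 9.37, 9.25, 9.50 and 9.30 in Western pools 1 to 4. Pool 5 was above and squalene pools 6 to 8 were below every Western pool, and the fitted log2 ratio was 0.06 ± 0.24 (SE, n = 4). The second probe of Zbp1 read 0.03. The RNA helicase sensors did not share the high pool to this extent. Ddx58, which encodes RIG-I, read 10.52, 10.42, 10.32 and 10.20 in the squalene pools, against 10.51, 10.29, 10.44 and 10.43 in the Western pools. Ifih1, which encodes MDA5, and Dhx58, which encodes LGP2, had fitted ratios of 0.04 and -0.08.

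The ADP-ribosyltransferase genes and their partner Dtx3l, a ubiquitin ligase, had fitted log2 ratios close to 0, from -0.05 to 0.06. For Parp14 the pairs nonetheless disagreed, with ratios of 0.30, 0.25, -0.51 and -0.23 in pairs 1 to 4 and an SD of 0.39. Parp9 read 11.24, 10.97, 11.12 and 10.80 in squalene pools 5 to 8, against 11.04, 10.86, 10.85 and 11.16 in Western pools 1 to 4, and the groups overlapped. The ligase Trim25, which modifies RIG-I, read 13.70, 13.73, 13.45 and 13.55 in the squalene pools, against 13.83, 13.38, 13.66 and 13.76 in the Western pools. It was among the 4 members below 0 in pair 1. Trim30a, another member of the TRIM family, had ratios of 0.40, -0.05, -0.65 and -0.26.

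The side of 0 on which most members lay depended on which pair was left out. With a single pair left in 1 dye orientation, a dye intercept would give that pair as much weight as the other pairs together, so plain means of the 3 remaining pairs are given, a choice made after the data were seen. Without pair 1, the mean log2 ratio was below 0 for 33 of 39 members, where 50.2% of all features were, with a median of -0.14. The 6 members above 0 were Gbp7, Irgm1, Iigp1, Ifih1, Parp9 and Ifi35, at 0.01 to 0.06. Over pairs 2 to 4, 13 members were below 0 in all 3 (9.31% of all features), and 7 reached an unadjusted p under 0.05 in limma without the dye term, all lower (1.89% of all features). These were Oas1a at -0.45, Ifi44 at -0.39, Isg15 at -0.35, Gbp2 and Ifit3 at -0.31, Rsad2 at -0.29 and Zbp1 at -0.28. Pair 1 was left out because most members peaked in its squalene pool, so lower ratios without it were built into the choice. The shares over all features carry no such choice, so these counts are not read as a decrease with squalene. Without pair 4, 28 members were above 0 and 11 below, where 49.9% of all features were below, and the median was 0.04. There 1 member, Iigp1 at 0.46, reached an unadjusted p under 0.05, on the higher side (0.702% of all features). In both fits 0 members passed an adjusted p of 0.05 (limma). The median was 0.01 without pair 3 and -0.05 without pair 2.

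**Figure D4:**
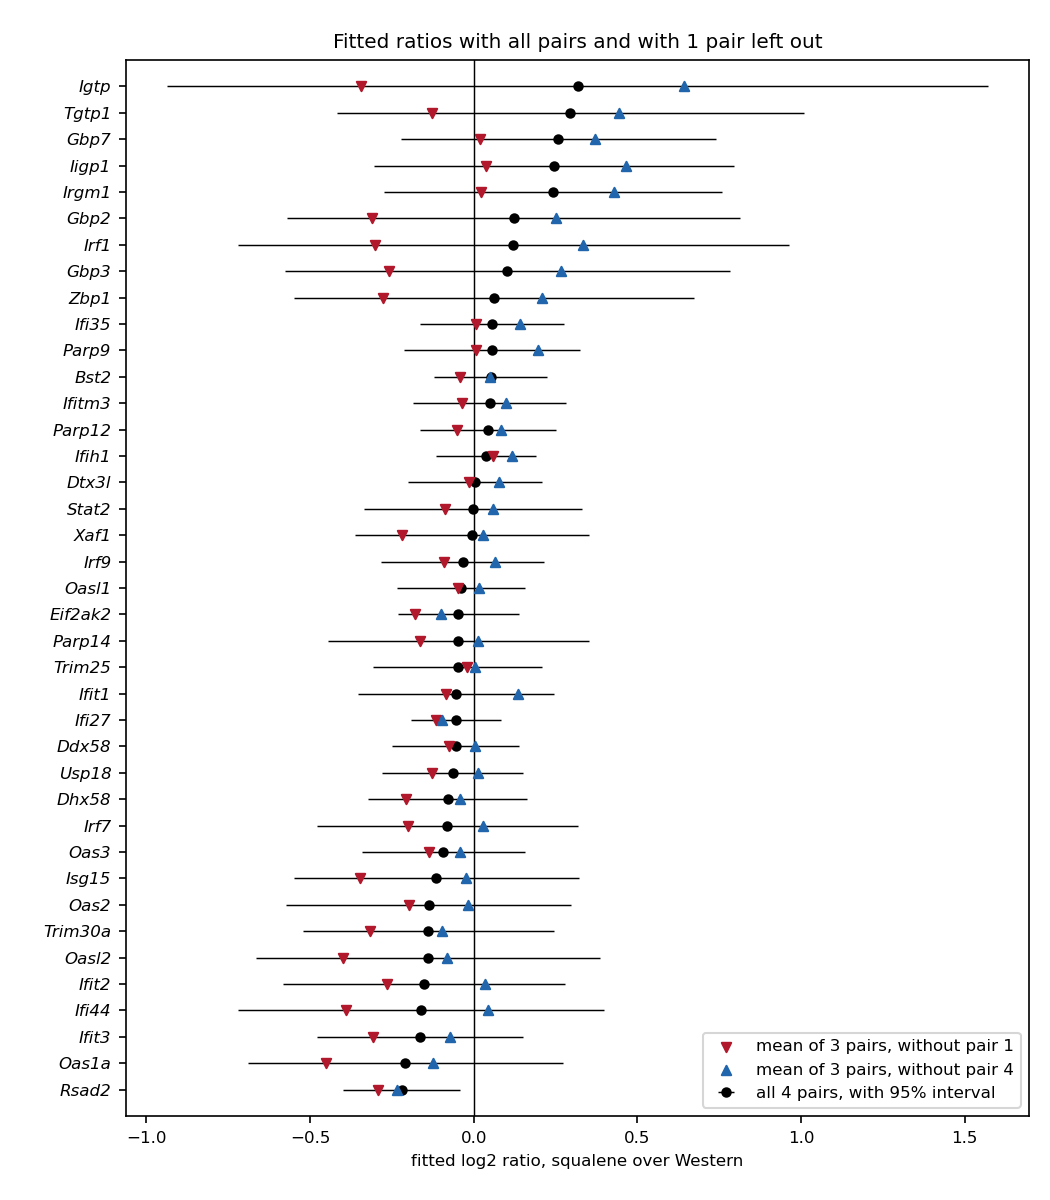
Log2 ratio of squalene over Western for the 39 measured members, fitted with all 4 pairs (black, with the 95% interval of the limma fit) and as the plain mean of 3 pairs without pair 1 (red) and without pair 4 (blue). Of the red symbols 33 lie below 0, and of the blue symbols 28 lie above 0. Pair 1 was left out because most members peaked in its squalene pool, so lower red symbols were built into the choice.

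The levels were more spread among the squalene pools than among the Western pools. The SD of the log2 level had a median over members of 0.30 among the 4 squalene pools and 0.16 among the 4 Western pools, beside 0.12 and 0.11 over all features. Without squalene pool 5, the median SD of the members among the remaining squalene pools was 0.11, beside 0.11 over all features. That pool was left out because most members peaked there, so a lower median SD was built into the choice. No Western pool was left out in the same way. Whether the remaining squalene pools differ in spread from the Western pools was therefore not tested. The repeat arrays of pair 1 had medians of 0.28 and 0.33 over the members and correlated across the 39 genes at r = 0.979, which describes the repeat of 1 RNA pair and not of animals.

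Genes upstream of the list were next. Of 11 interferon ligand genes, 5 passed the filter and 0 reached an unadjusted p under 0.05 (limma); Ifng and Ifnb1, the genes of interferon-gamma and interferon-beta, were not well above background in any pool. The ligand genes that passed were dim, with fitted log2 ratios from -0.01 to 0.01, among them Ifnl3 at 0.01 and Ifna2 and Ifna5 at -0.01. Of 6 receptor genes 5 were measured, all with fitted ratios below 0 and 0 at an unadjusted p under 0.05. These included Ifngr1 at -0.16 ± 0.07, Ifngr2 at -0.09 ± 0.05 and Ifnar1 at -0.13 ± 0.08 (SE, n = 4).

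Of the receptor kinases, Jak1 was at -0.04 ± 0.06 and Jak2 at -0.04 ± 0.07 (SE, n = 4), with unadjusted p of 0.522 and 0.610 in limma. Of 7 signal inhibitors 0 reached an unadjusted p under 0.05, and 5 of 7 were highest in squalene pool 5. Socs3 was at -0.30 ± 0.15, Ptpn11 at 0.09 ± 0.07 and Sh2b3 at 0.09 ± 0.07 (SE, n = 4). Of 16 genes that sense nucleic acid or microbial products and lead to interferon, 14 were measured and 1, the transcription factor Irf5, reached an unadjusted p under 0.05. Irf5 was at -0.21 ± 0.08 and below 0 in every pair (SE, n = 4; unadjusted p = 0.0412, adjusted p = 1.00, limma). Over all features 2.42% reached an unadjusted p under 0.05, 1.33% on the lower side, and 6.48% kept 1 sign in all 4 pairs. Irf5 was 1 of 37 measured genes of the pathway lists at that level, which is near the background. The kinase Tbk1 and the RNA receptor Tlr7 were at 0.10 and -0.10.

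The interferon-induced chemokines Cxcl9 and Cxcl10, which draw T cells through the receptor CXCR3, matched the GTPases in where they peaked. Cxcl9 read 10.68, 9.06, 8.86 and 8.91 in squalene pools 5 to 8, against 9.35, 8.97, 8.97 and 9.18 in Western pools 1 to 4. Cxcl10 read 11.47, 9.76, 9.17 and 10.05 in the squalene pools, against 10.01, 10.05, 10.25 and 10.04 in the Western pools. Both were highest in squalene pool 5, and their fitted log2 ratios were 0.26 ± 0.26 and 0.02 ± 0.26 (SE, n = 4).

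Markers of B cells and inflammatory monocytes were also high in squalene pool 5, and in bulk RNA more cells of a type and more RNA per cell cannot be told apart. All 3 measured B-cell markers of 4 listed peaked there, and the log2 of their summed level was 9.47 in pool 5 and 8.18 to 8.27 in the other squalene pools, against 8.30 to 8.53 in the Western pools. All 4 measured inflammatory monocyte markers of 5 listed did so too, at 11.90 in pool 5 and 10.60 to 10.81 in the other squalene pools, against 10.91 to 11.40 in the Western pools. Kupffer cell markers were mixed. Adgre1, Marco and Timd4 peaked in pool 5, while Clec4f and Vsig4 had log2 ratios of -0.54 and -0.52 in pair 1. For all 6 markers the sum was 16.62 in pool 5 and 15.61 to 15.99 in the other squalene pools, against 15.74 to 16.50 in the Western pools. Neutrophil markers peaked there in 3 of 4 cases. Their sum in pool 5, 14.98, lay inside the Western range of 14.91 to 15.18, but it mostly follows the brightest gene, Csf3r. Csf3r did not peak there, at 14.82 against 14.82 to 15.08 in the Western pools. S100a9 read 11.35 in pool 5 against 10.40 to 11.05 in the Western pools, and S100a8 read 9.20 against 8.57 to 9.06.

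Markers of the other lists peaked in squalene pool 5 less often, and their sums mostly follow the brightest gene of each list. Of 5 measured T and NK cell markers 2 peaked in squalene pool 5, with sums of 10.98 to 11.31 in squalene pools and 11.06 to 11.29 in Western pools. Gzma, a granule protease, was the marker with an unadjusted p under 0.05 in limma (0.29 ± 0.07, SE, n = 4). That is 1 of 38 measured markers over all cell lists, beside 2.42% of all features. Its log2 ratios were 0.77, 0.01, -0.16 and 0.57 in pairs 1 to 4, with an SD of 0.44. The high ratios were those of pairs 1 and 4, with squalene in red. The dye intercept took up that difference, so the SE leaves it out. The NK markers Ncr1 and Klrb1c did not pass the filter. Plasmacytoid dendritic cell markers peaked there in 2 of 6 cases, with sums of 15.39 to 15.94 and 15.31 to 16.01, and liver endothelial markers in 1 of 4, with sums of 13.69 to 14.04 and 13.88 to 14.02, squalene before Western. The plasmacytoid sum mostly follows Siglech. Ly6d, 1 of the 2 that peaked, read 10.22 in pool 5 against 8.52 to 10.01 in the Western pools. Of 6 hepatocyte markers 0 peaked in squalene pool 5, and their sum was 18.72 to 19.06 in squalene pools and 18.57 to 19.01 in Western pools. The part of these cell markers in the high interferon-stimulated genes of squalene pool 5 was not tested.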

How the data were processed

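Spot and local background intensity in 2 colours on 6 arrays were written, per the file headers, by version 10.7.3.1 of Agilent's Feature Extraction program, as were the background-subtracted, dye-normalised intensity and the log10 ratio of red over green. The deposited value table also holds a log10 ratio per spot, whose making the sources do not state. In both columns of pair 1 the deposited values were handled as a score, since 2 cells of each are far outside the range of such ratios and were dropped. For 99.93% to 99.94% of spots it matched, to 0.001, the ratio of squalene to Western in raw median signal. Its columns were not centred, with medians of 0.254 and 0.27 (pair 1), -0.217 and -0.257 (pair 2), -0.27 (pair 3) and 0.259 (pair 4). Other deposited columns marked control spots, outliers and signal above background.

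Background was removed from the median signals by normexp with an offset of 50, and each array was then loess-normalised; control spots had no weight in the loess and outlier spots were dropped. Log ratios were turned to squalene over Western by the dye labels. Spots of a probe and the repeat arrays of pairs 1 and 2 were averaged. Probes well above background in at least 3 of 4 pairs in either diet were kept (26870 of 55681), with no spot saturated. A RefSeq table (GRCm38.p6) named 26762 probes with 1 symbol each; the array design names an older build. The brightest probe stood for each symbol. limma 3.58.1 in R 4.3.3 fitted the squalene effect with a dye intercept and eBayes (prior 3.08 and residual 2 degrees of freedom), with Benjamini-Hochberg adjustment over 22947 features; the intercept takes up differences between the orientations. Levels were log2 intensities per channel after Aquantile, and summed levels add intensities of a list's genes, so the brightest gene weighs most. The number of arrays limits the precision. With the dye intercept, SEs and p-values measure the spread between pairs of the same dye orientation, moderated by eBayes, and not the spread over all 4 pairs. Eif2ak2, for example, had an SD between pairs of 0.35 and an SE of 0.07.

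The fit was tested on simulated ratios. The members and lists were chosen with earlier results of these data known. Full values were given for members at an unadjusted p under 0.05, the 4 smallest p in each direction, the 6 largest SDs between pairs and the brightest of each role, and for up to 3 pathway genes per list by p; other values were chosen after they were seen. Alternatives covered background correction, normalisation, the deposited table, probe filters, the dye term, slides, probes per gene, the variance model and each pair left out; the symbol-only fit, the recount of peak pools and leaving out a pair without the dye term were added after seeing the data. One gene of the signalling lists is not reported here.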

Additional observations from a re-analysis of the deposited data

Results flagged for a closer look

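For 5 of the 39 measured members, 1 pool pair lay so far from the other 3 that its gap took up more of the range than Dixon's 95% critical value allows; the same held for 4.72% of all features, and chance flags about 1 group in 20. Gbp2 had a gap of 0.901 of its range, with 1.42 in pair 1 and between -0.42 and -0.24 in the others. Trim25 had 0.870, with 0.34 in pair 2 and -0.21 to -0.13 elsewhere, the only one of the 5 set apart by a pair other than pair 1. Parp12 had 0.859, with 0.32 in pair 1, Dhx58 had 0.832, with 0.30 in pair 1, and Tgtp1 had 0.8293, with 1.57 in pair 1.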

How the results depend on the processing

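The median log2 ratio of the members lay between -0.169 and 0.0977 in the fits that omit a pair, and was 0.184 on slide 1, which holds pairs 1 and 2 alone. The count of features past an adjusted p of 0.05 was 1 with median centring and 6 with the deposited table, and 0 of them were members. Features at an unadjusted p under 0.05 numbered 556 in the reported fit, 227 with median centring, 172 with the deposited table, 1241 with no filter on dim probes, 275 without the dye term, 8 with an intensity trend and robust variance, 349 among features with a symbol alone, 410 to 1388 with 1 pair left out and 348 to 620 with the dye term dropped too (363 without pair 2). Members at that level numbered 1 in the reported fit, 0 with scanner processed signals, median centring, the deposited table or the robust variance, 0 to 9 with 1 pair left out and 0 to 7 with the dye term dropped too. Members with 1 sign in all pairs numbered 0 with scanner processed signals, median centring or slide 2 alone and 2 with the mean over probes. Other pathway genes at an unadjusted p under 0.05 numbered 0 with scanner processed signals, median centring, the deposited table, slide 2 alone or the robust variance, 2 without the filter 0 to 4 with 1 pair left out and 0 to 6 with the dye term dropped too. Members highest in squalene pool 5 numbered 28 to 38 under the 4 other ways of setting the levels. The share of all features highest there was not counted under those settings, so these counts have no background beside them. The fits that omit a pair were run with the dye term and, added after seeing the data, without it. With the term, the lone pair of an orientation has no residual and the spread comes from the other orientation alone, so the 8, 3 and 9 members at an unadjusted p under 0.05 without pairs 1, 2 and 4 are not read as results. The cause of the other moves was not tested.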
